A study of Mus musculus with 4 samples.

Results

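The 8 genes Myod1, Myog, Myf5, Myf6, Mef2a, Mef2c, Mef2d and Six4 encode transcription factors of the skeletal muscle lineage. They were taken by name, as 8 of the 21755 protein-coding genes that GENCODE M21 (mouse build mm10, GRCm38) places on chromosomes 1 to 19 and X. Around each gene, the binding of the architectural protein CTCF was read from 100 kb before the gene body to 100 kb past it. These windows held 58 distinct CTCF summits, a summit being the position of highest signal in a peak, of the 42163 in the list headed conservative by its depositors. The windows of Myf5 and Myf6 overlap and share 3 summits, so these neighbours are not independent.

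CTCF chromatin immunoprecipitation and sequencing (ChIP-seq) was done on gastrocnemius, the large calf muscle, of female adult B6CASTF1/J mice aged 2 months. The 4 libraries formed 2 groups, pool E and pool F, each made from 2 gastrocnemius biosamples and sequenced as 2 technical replicates. All of them shared strain, sex, age, tissue and antibody, so there was no treated or untreated group to compare. The deposited peak lists merge the technical replicates of each pool, a single control alignment served both pools, and read depth was unknown because no list gives read counts.

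Further limits follow from the material. The mice are hybrids and the reads were placed on mm10, so the parental alleles were not told apart. CTCF peaks give no expression, so the labelled tissue could not be checked against muscle markers, and muscle fibres, satellite cells and other cells of the calf contribute to the same peaks. The labels number pool E as biological replicate 1 and pool F as biological replicate 2. They do not say whether the pools drew on separate animals.

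As background, Myod1, Myf5 and Myf6 (also called Mrf4) are basic helix-loop-helix (bHLH) factors that commit cells to the muscle fate, and Myog, of the same family, drives their differentiation. MEF2 factors bind beside the bHLH factors at muscle genes, and sine oculis-related homeodomain factors such as Six4 act above several of them. CTCF binds DNA through zinc fingers and halts the cohesin complex as it extrudes chromatin loops. Loops tend to form between CTCF motifs that point towards each other. The nearest summits on either side of a gene, with or without a motif, were taken here as possible edges of its regulatory domain. Whether they act as edges was not tested.

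The CTCF consensus was found within 50 bp of 39 of the 58 summits with at most 2 mismatches, and 8 summits carried it with no mismatch. Those 8 sites are shown first because each exact consensus site in the windows carried a summit. Each line gives the gene, the distance of the summit from its start in the direction of transcription, the mm10 position and the strand. Sequences are the mm10 reference read 5′ to 3′ along the motif, with the motif in capitals and 8 bases on either side in lower case.
Myod1 −96338 bp, chr7:46280139-46280168, plus strand: gcagacttCCACTAGAGGGCGCaatgggtc
Myog +42086 bp, chr1:134332057-134332086, minus strand: ccatactaCCAGTAGGTGGCGCcctagact
Mef2a +173249 bp, chr7:67199582-67199611, minus strand: gctccaggCCAGCAGGGGGCACtgcagcgt
Mef2a +143769 bp, chr7:67229077-67229106, plus strand: atgcctgaCCAGCAGGGGGCAGacaggggg
Mef2c +151045 bp, chr13:83655062-83655091, minus strand: tgttatggCCAGCAGGTGGCGCtatgacca
Mef2d +101907 bp, chr3:88244251-88244280, minus strand: cccctatgCCACTAGAGGGCAGtctaaccc
Mef2d +103655 bp, chr3:88246022-88246051, plus strand: tggccctgCCACCAGGGGGCGCtgcactac
Six4 +92329 bp, chr12:73021115-73021144, plus strand: ctgtgtatCCAGCAGGGGGCACtcacaggc

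The 8 sites used 7 distinct motif sequences. They had the same base at 8 of the 14 motif positions, as any exact match must, because the consensus fixes those bases. Only the other positions allow a choice of base. Across the genome, 5159 of 6562 exact sites (78.6%) carried a summit, and 8 of 8 did so in these windows (95% Wilson interval 67.6% to 100%). Sites with 1 mismatch were bound less often, 17 of 53 in the windows (32.1%, interval 21.1% to 45.5%) beside 24.4% of the 57894 such sites genome-wide. These intervals cover counting error only.

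The following 3 sites are shown because they sit in or just past the Myod1 gene. Mismatches to the consensus number 2, 1 and 1 in the order given.
Myod1 +716 bp, chr7:46377172-46377201, minus strand: aggcagcgGCGCCAGGGGGCGCggcgtcct
Myod1 +1926 bp, chr7:46378400-46378429, plus strand: cgactgcaGCAGCAGAGGGCGCaccaccgt
Myod1 +2704 bp, chr7:46379162-46379191, plus strand: cagcgaccCCTGTAGGTGGCAGaagggtag

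Another 4 sites are shown because they lie under the motif-bearing summits of the Myf5 window and the upstream flank of the Myf5 and Myf6 pair. Their distances are from the Myf5 start, and they have 1, 1, 2 and 1 mismatches.
Myf5 +43151 bp, chr10:107442973-107443002, plus strand: ttctctaaCCACCAGGGAGCAGacgagtgc
Myf5 +29316 bp, chr10:107456812-107456841, plus strand: taatttgcCCACTAGAGGCCAGtaacaccc
Myf5 +12389 bp, chr10:107473721-107473750, minus strand: ctcagcagCCAGTGGAGGGCATctgatccc
Myf5 −218517 bp, chr10:107704628-107704657, minus strand: aaattagaCCATTAGAGGGCAGcaaccatc

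The final set holds the strongest summit of the 58, past the end of Mef2c, with 40 bases on either side of a motif with 1 mismatch, and a still stronger candidate near Mef2d that the conservative list leaves out.
Mef2c +211139 bp, chr13:83715130-83715223, plus strand: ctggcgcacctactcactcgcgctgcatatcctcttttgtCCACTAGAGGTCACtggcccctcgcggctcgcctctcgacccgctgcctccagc
Mef2d −54522 bp, chr3:88087842-88087871, plus strand: cctacatgCCAGAAGAGGGCACcagactgc

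Close to gene starts, CTCF marked 3 of the 8 genes. Mef2d had a summit 371 bp before its start, Myod1 one 716 bp past its start and Myog one 1140 bp past its start. Within 1000 bp of the start, 2 of 8 members had a summit, where 20.6% of all protein-coding genes did. Within 5000 bp the count was 3 of 8 (37.5%, interval 13.7% to 69.4%) beside 37.4% of all genes, and within 20000 bp it was 5 of 8 beside 65.9%. The members' count at each distance was therefore near the background.

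The other 5 genes had their nearest summit 12389 bp (Myf5), 18968 bp (Mef2a), 20992 bp (Myf6), 28177 bp (Mef2c) and 59413 bp (Six4) from the start. The members' median of 15678.5 bp stood beside a median of 9924 bp over all genes (quartiles 1690.5 and 31405.5 bp). Counting the starts of all annotated transcripts added Mef2c, with a summit 2073 bp from an internal coding transcript start, for 4 of 8 members beside 47.2% of genes. The closest that Mef2a came by this measure was 6180 bp.

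**Figure D1:**
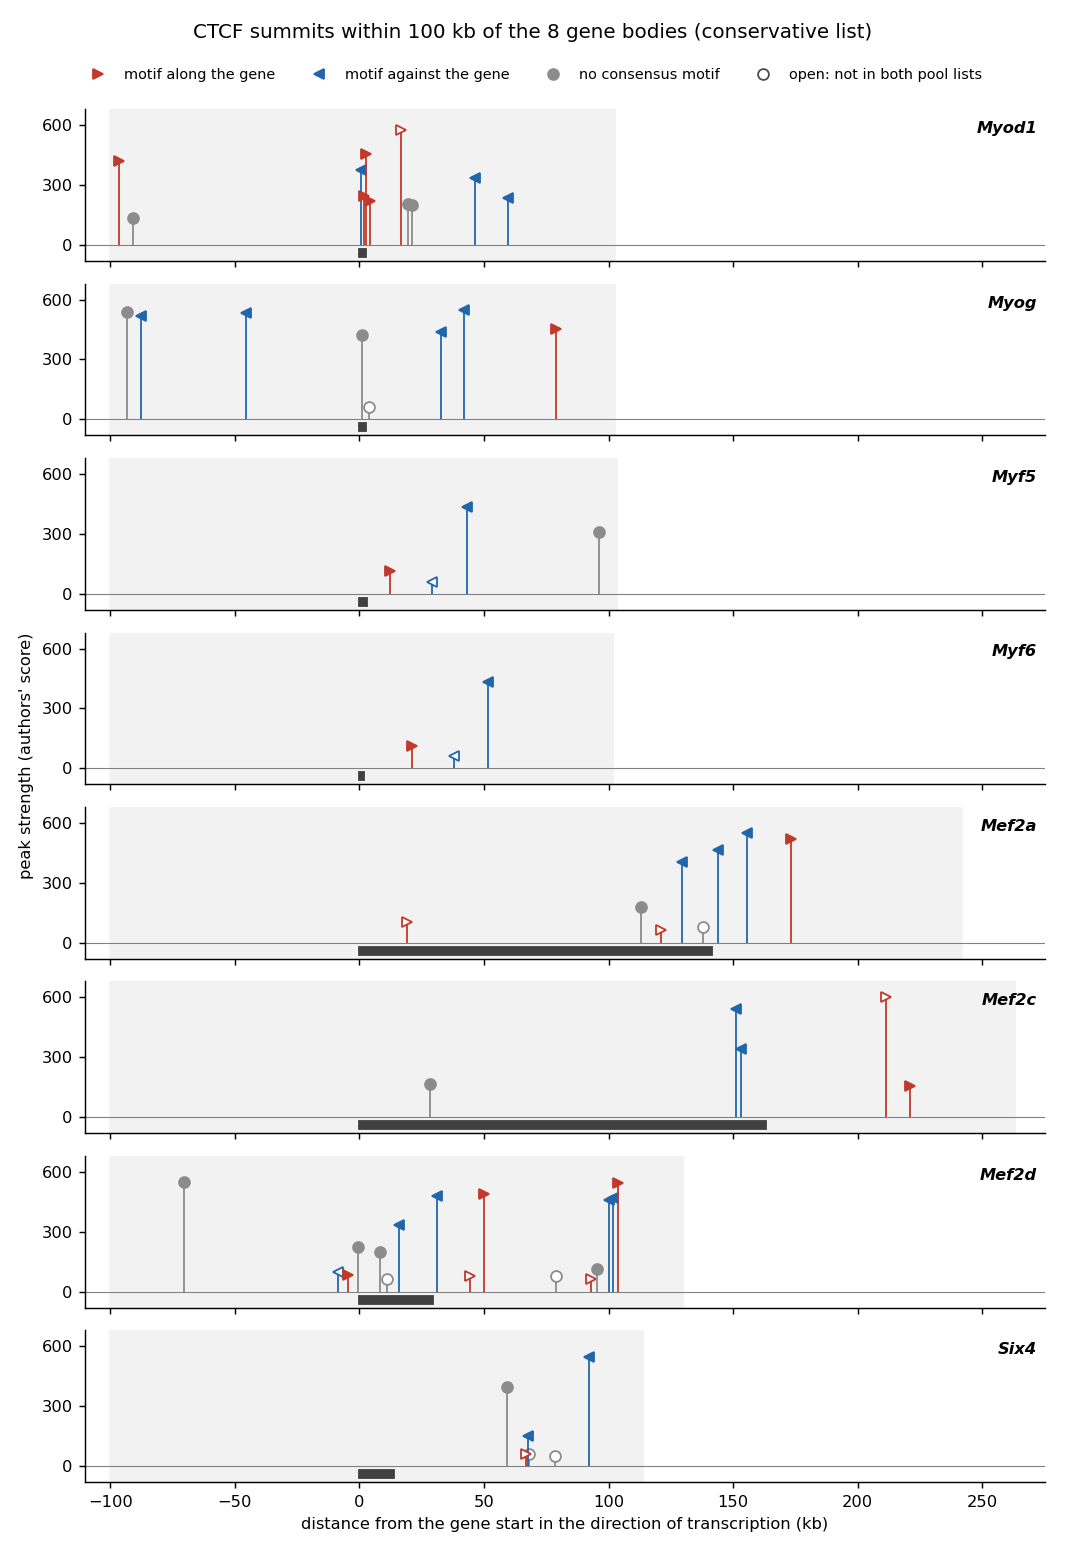
CTCF summits of the conservative list in each window (grey shading), by distance from the gene start in kb (x axis) and peak strength, the authors' score (y axis); dark bars are gene bodies, triangles point the way the motif runs relative to the gene, and open symbols did not overlap both pool lists by 1 bp. The 100 kb before the start is empty for Myf5, Myf6, Mef2a, Mef2c and Six4, while Myod1 has 2 summits inside its gene body and another 79 bp past its end.

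Myod1, the factor that can convert other cell types to muscle, lies at chr7:46376474-46379099 on the plus strand and has 1 annotated transcript of 3 exons. Its window held 11 summits, 5.43 per 100 kb, more than 83.2% of protein-coding genes. Of these, 2 lay inside the gene body of 2626 bp. Among the 938 protein-coding genes within 1.25 times its length, 15.9% had any summit in the body.

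The Myod1 summit 716 bp past the start fell in coding exon 1, with a peak strength of 373 in the conservative list, 244 in pool E and 128 in pool F. Strength is the score deposited with each peak, on a scale that was not stated, and serves here to rank peaks within a list: 373 stood at percentile 66.7 of the 42163 peaks. The 201 bp around this summit were 68.2% G and C, with CpG at 0.89 of the number that base composition alone gives, well above the medians of 48.8% and 0.23 over all summits. The second body summit, 1926 bp past the start in the untranslated part of exon 3, had a strength of 244, with 180 in pool E and 71.4 in pool F.

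Another summit stood 79 bp past the annotated end of Myod1, with a strength of 456 (293 in pool E, 163 in pool F), and formed its downstream flank. All 3 were found in the pool E and pool F lists. Their motifs ran along the gene at the 2 farther summits and against it at the summit in exon 1.

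Before Myod1 there was no summit for 90807 bp. The upstream flank, of strength 136 (87.7 in pool E, 49.0 in pool F) and without a motif, lay in intron 33 of Otog, a gene for a protein of the inner ear. A stronger one at 421.9, with an exact motif, lay in intron 30 of Otog at 96338 bp before the Myod1 start. The span between the flanks was 93.5 kb, close to the median of all genes (93.6 kb), and held no whole protein-coding gene other than Myod1.

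Past the gene, the strongest summit of the window stood 16841 bp from the Myod1 start and 3182 bp from the start of Kcnc1, a potassium channel gene. Its strength was 577 (342 in pool E, 237 in pool F), at percentile 96.4. Near or within Kcnc1 were 4 more, at 19641, 21157, 46517 and 59581 bp from the Myod1 start, with strengths of 204, 199, 336 and 233. At an overlap of 1 bp both pool lists held all 4 of these, and at a reciprocal overlap of 50% pool F did not hold the last.

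Myog, which encodes myogenin, lies at chr1:134289989-134292548 on the plus strand. Its window held 8 summits (3.95 per 100 kb, above 66.7% of genes), of which 1 fell inside the gene. That body summit, 1140 bp past the start in coding exon 2 of 3, had a strength of 420.4, with 273 in pool E and 146 in pool F. In genes of similar length the share with a body summit was again 15.9%, over 891 genes.

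The Myog peak is shown whole because no consensus match with up to 2 mismatches lay near its summit, although a weight matrix learned from summits outside the windows found a match on the minus strand. Its sequence is given on the plus strand, with coding exon 2 in capitals.
Myog +1140 bp, chr1:134290997-134291278: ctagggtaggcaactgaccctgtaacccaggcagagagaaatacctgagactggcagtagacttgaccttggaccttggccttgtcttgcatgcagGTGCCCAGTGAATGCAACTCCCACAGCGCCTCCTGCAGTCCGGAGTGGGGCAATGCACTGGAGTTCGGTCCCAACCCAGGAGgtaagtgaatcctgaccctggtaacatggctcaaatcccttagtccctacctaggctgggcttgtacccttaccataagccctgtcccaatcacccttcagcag

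The flanks of Myog differed in strength. The upstream flank, 45605 bp before the start, reached 534 (298 in pool E, 235 in pool F), and its pool E strength exceeded that of pool F by only 0.34 on the log2 scale, the smallest excess of the 58. Downstream, 1233 bp past the gene end, the flank had a strength of 63.3 (43.5 and 21.2), stood at percentile 4.65, carried no motif and was absent from the pool F list. The interval between them was 49.4 kb.

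The Myog interval depended on weak peaks. Pool E and the combined list placed the upstream flank at 8220 bp, on a peak of strength 29.5 in pool E, which gave an interval of 12.01 kb in each. Pool F placed the downstream flank at 30270 bp, which gave 78.4 kb. In that list both flanks carried motifs, in tandem.

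Around Myog the other summits were strong. Upstream, summits at 93342 bp in an intron of Mybph, which encodes a myosin-binding protein, and at 87745 bp in the untranslated part of Adora1 had strengths of 538 and 517. Downstream, the summits at 32826 and 42086 bp lay in introns of Ppfia4 with strengths of 437 and 549, the second 853 bp from the Ppfia4 start and on an exact motif. The farthest, at 78967 bp and 6977 bp from the start of Tmem183a, had 455.

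Myf5 (chr10:107482908-107486134) and Myf6 (chr10:107492853-107494737) sit side by side on the minus strand, with Myf6 on the upstream side. Neither gene held a summit, where 15.2% of 1207 genes near the length of Myf5 and 12.6% of 649 near that of Myf6 did. The windows held 4 and 3 summits, or 1.97 and 1.49 per 100 kb, above 34.6% and 27.1% of genes. All of these lay past the ends of the genes.

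Both genes shared the same flanks, 230.9 kb apart, an interval longer than that of 75.4% of genes. The downstream flank, 9163 bp past the end of Myf5, had a strength of 112 (75.6 in pool E, 35.0 in pool F) at percentile 23.6. The upstream flank lay in intron 8 of Ptprq, a gene for a receptor phosphatase that runs through the region in which elements controlling this gene pair are known. It had a strength of 305 (188 and 117) and stood 218517 bp before the Myf5 start and 209914 bp before the Myf6 start.

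Both flank motifs of the pair were on the minus strand, so the flanks were tandem rather than convergent. The stronger summit behind the downstream flank, 43151 bp past the Myf5 start, had a strength of 434 (266 in pool E, 169 in pool F) and its motif on the plus strand. With only the strongest 50% of the conservative list, that summit became the flank, the interval grew to 261.7 kb, and the motifs at the edges faced each other. Between these lay 1 further summit, 29316 bp past the Myf5 start, of strength 59.3 (41.9 and 15.3) and in neither pool list.

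The position of the Myf5 and Myf6 flanks was stable between lists: pool E, pool F and the combined list gave the same flanks to within 8 bp. Inside the genes themselves, candidates appeared only in the ranked list, before its threshold of 0.05 on the irreproducible discovery rate (IDR). One was 447 bp past the Myf5 start with a strength of 28.1 and an IDR of 0.61, and the other 881 bp past the Myf6 start with 29.2 and 0.15. The last summit of the Myf5 window, at 96326 bp in an intron of Lin7a, had a strength of 310.2.

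Among the MEF2 genes, Mef2a, at chr7:67231163-67372858 on the minus strand with 12 transcripts, held 5 of its 8 summits in the gene body. A body summit was present in 89.6% of the 939 genes of similar length. The body summits lay 18968 bp (strength 105, in intron 1), 112876 bp (177), 121122 bp (62.7, in coding exon 8), 129528 bp (403) and 137840 bp (80.2, in coding exon 12) past the start. Pool F listed only those at 112876 and 129528 bp, so that its nearest summit to the Mef2a start was 112876 bp away.

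Mef2a had its strong summits at the 3′ end. The downstream flank, 2074 bp past the gene end, was on an exact motif with a strength of 466 (303 in pool E, 162 in pool F). Farther on, summits at 155592 and 173249 bp from the start had 548 and 522, in an intron of the non-coding gene 1700112J16Rik and between genes, with Lysmd4 the nearest start.

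Upstream of Mef2a, the first summit was 114558 bp away, with a strength of 73.2 (49.9 and 23.1) and no motif. Its peak in the ranked pool F list had an IDR of 0.17, and the thresholded pool F list left it out. The interval of 258.3 kb was above that of 77.7% of genes. In pool F the upstream flank moved to 148282 bp, which gave 292.1 kb and a convergent pair of motifs. The combined list added a peak of strength 50.2 at 81793 bp before the start and shortened the interval to 225.6 kb.

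Mef2c, which is needed in heart and skeletal muscle and in neurons and lymphocytes, lies at chr13:83504034-83667080 on the plus strand and has 31 transcripts. It had the widest interval of the 8, at 638.3 kb, above 88.4% of genes, and the fewest summits per 100 kb, at 1.38. No summit was listed for 427182 bp before its start. The upstream flank found there, in an intron of 2310067P03Rik, had a strength of 68.7 (48.6 in pool E, 20.3 in pool F) and no motif. Its peak in the ranked pool F list had an IDR of 0.60, and the thresholded pool F list left it out.

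In pool F the upstream distance of Mef2c grew to 1007271 bp and the interval to 1218.4 kb. The strongest 50% of the conservative list gave 1559834 bp and 1771 kb. No protein-coding gene lay whole inside the interval of the conservative list other than Mef2c itself. The upstream edge in the conservative list was thus 1 weak peak that pool F did not list.

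Inside Mef2c were 3 summits, at 28177 bp in intron 2 (strength 168), 151045 bp in intron 9 (542, exact motif) and 152939 bp in intron 11 (340.2). Each overlapped a peak of both pool lists by at least 1 bp, and at a reciprocal overlap of 50% pool F held only the one in intron 9. A body summit was present in 90.3% of 795 genes of similar length. The pair in introns 9 and 11 ran against the gene near its 3′ end.

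Past the end of Mef2c by 48093 bp stood the strongest of the 58 summits, with a strength of 603.4 (357 in pool E, 253 in pool F), at percentile 98.6. Its motif ran along the gene, and its sequence is given above. The next, at 221146 bp from the start in the non-coding gene Gm26803, had a strength of 154. In pool E and the combined list the downstream flank moved to this weaker summit, 58091 and 58100 bp past the gene end. Below the threshold, the ranked list held 34 further candidates in the Mef2c window, which is the longest of the 8 windows.

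Mef2d, at chr3:88142372-88172086 on the plus strand with 7 transcripts, had the densest window, with 16 summits or 6.97 per 100 kb, above 93.2% of genes. It also had the shortest interval, 31.6 kb, longer than that of only 14.2% of genes. Its upstream flank stood at the promoter, 371 bp before the start, with a strength of 225 (152 in pool E, 75.7 in pool F). The downstream flank, 1525 bp past the gene end in a masked repeat, had 478 (287 and 195).

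The Mef2d promoter peak is shown whole, on the plus strand, because neither the consensus nor the weight matrix found a match at its summit. It is all in lower case because it holds no coding exon of Mef2d, which capitals would mark in a whole peak.
Mef2d −371 bp, chr3:88141881-88142098: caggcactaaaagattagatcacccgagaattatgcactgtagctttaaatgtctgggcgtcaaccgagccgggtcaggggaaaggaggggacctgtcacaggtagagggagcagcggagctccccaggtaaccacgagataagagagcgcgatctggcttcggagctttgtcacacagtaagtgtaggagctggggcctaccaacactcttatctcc

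The Mef2d body held 3 summits, at 8351 bp (strength 196) and 11122 bp (61.8) in intron 1 and at 15735 bp (336) in coding exon 4 of 12. Among 2566 genes of similar length, 58.2% had any. The strongest summits of the window lay farther out, with 550.5 at 70352 bp before the start in Ttc24, 546 and 467 at 103655 and 101907 bp past the start in introns of Rhbg, an ammonium transporter gene, and 488 at 50017 bp. The pair in Rhbg stood on exact motifs that pointed away from each other.

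A candidate 54522 bp before the Mef2d start, in intron 4 of Iqgap3, was stronger than any of the 58 summits, with a strength of 617 in the ranked list (365 in pool E, 249.7 in pool F). It was kept out of the conservative list by an IDR of 0.058, just over the threshold, and was listed in pool F. Including it would leave the flanks of Mef2d unchanged. Across the genome, 440 of the 4657 ranked peaks whose strength reached the 90th percentile of the conservative list had an IDR above the threshold.

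Six4, at chr12:73099609-73113456 on the minus strand, encodes a homeodomain factor that acts at the bHLH genes. It held no summit in its body, where 39.5% of 2574 genes of similar length had one. All 6 summits of its window lay past its 3′ end, and the nearest was 59413 bp from its start, the greatest distance among the 8. That summit, of strength 398 (254 in pool E, 146 in pool F) and without a motif, formed its downstream flank, 45566 bp past the gene end.

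Farther on were 3 more summits of the Six4 window, at 66732, 67655 and 68224 bp from the Six4 start, with strengths of 59.8, 149 and 58.9. At an overlap of 1 bp, pool F listed only the second of these. Beyond these, a summit at 78498 bp had a strength of 50.05 and was in neither pool list, and one at 92329 bp stood on an exact motif with 546 (333 and 219). Upstream, the flank was 105369 bp before the Six4 start in intron 6 of Mnat1, which encodes a subunit of the CDK-activating kinase, with a strength of 166 (117 and 49.4).

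The Six4 interval of 164.8 kb was above that of 67.9% of genes, and its upstream edge lay within Mnat1. All 4 lists gave it to within 0.02 kb. With the strongest 50% of summits the upstream flank moved to 211526 bp and the interval to 270.9 kb.

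**Figure D2:**
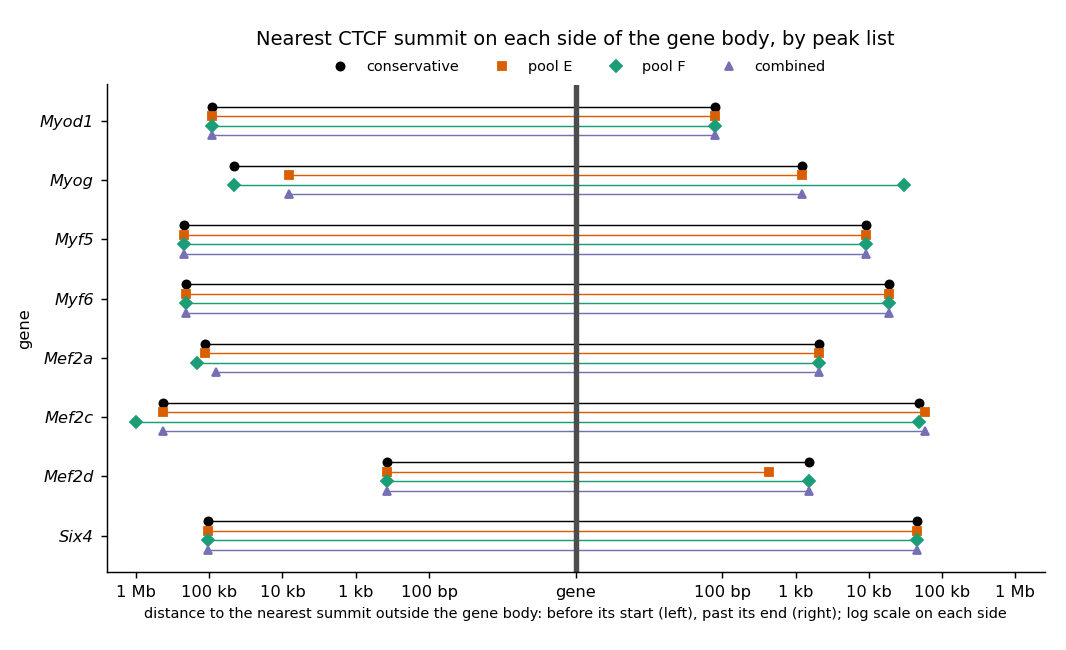
Distance from each gene to the nearest summit before its start (left) and past its end (right), in the conservative, pool E, pool F and combined lists; both sides of the x axis are logarithmic and the gene body is drawn as the central line. The lists place the flanks together for Myf5, Myf6, Six4 and Myod1, and apart for Myog, where the upstream distance is 45605 or 8220 bp, and for Mef2c, where it is 427182 or 1007271 bp. The downstream distance of Mef2c is 48093 bp in the conservative and pool F lists, 58091 bp in pool E and 58100 bp in the combined list.

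Over the 8 genes the intervals ran from 31.6 kb at Mef2d to 638.3 kb at Mef2c, with a median of 197.8 kb. The median over the 21687 genes with a summit on each side was 93.6 kb (quartiles 46.9 and 223.5 kb). The members' windows held 3 to 16 summits with a median of 7, the same as the median of all genes. Per 100 kb of window, the medians were 2.57 for the members and 2.90 for all genes. Body summits were present in 5 of 8 members beside 45.8% of all genes.

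The long intervals lay on the upstream side. In 5 of the 8 genes, Myf5, Myf6, Mef2a, Mef2c and Six4, no summit was listed in the 100 kb before the start, beside 18.8% of all protein-coding genes. This measure was chosen after the values had been seen, it was not tested, and Myf5 and Myf6 share 1 upstream region. The count was 5 in pool E (where 16.6% of all genes had none), in pool F (22.2%) and in the strongest 50% (31.2%). It was also 5 among summits in both pool lists at 1 bp (23.1%), and 4 in the combined list (16.9%). The limit of 100 kb was not varied, and Six4 at 105369 bp and Mef2a at 114558 bp were not far past it.

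Flank orientation could be read at few members. Both flanks carried a motif only for Myf5 and Myf6, which share 1 tandem pair, so 0 of the 2 readable members had convergent flanks, and 29.0% of the 13709 genes with a motif at both did. With flanks taken from motif-bearing summits only, all 8 could be read: 2 of 8 were convergent (Mef2a and Mef2d) beside 28.9% of 21682 genes, 5 were tandem and 1 divergent. The strongest 50% gave 3 convergent members of 6 readable, Mef2a and the pair Myf5 and Myf6 with its shared flanks, beside 27.5% of 16236 genes.

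**Figure D3:**
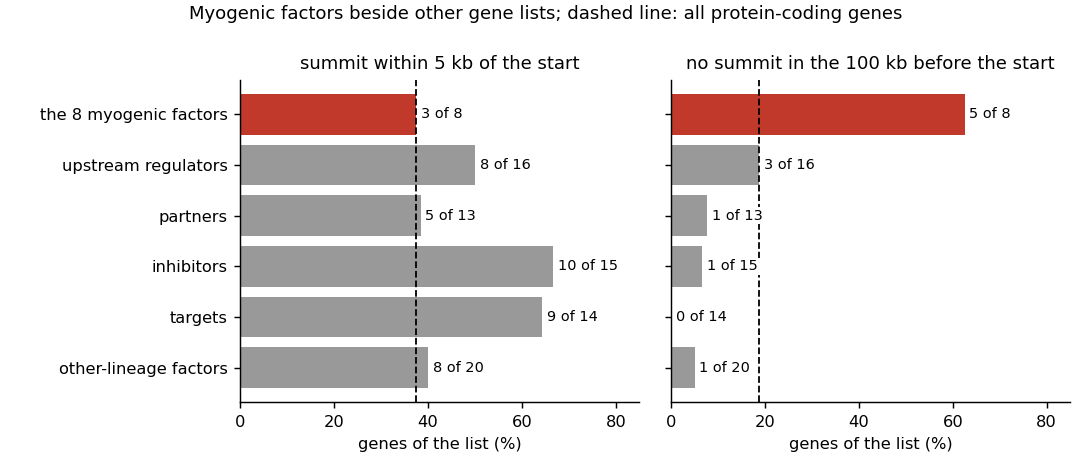
Share of genes in each list with a summit within 5 kb of the start (left) and with none in the 100 kb before the start (right), in percent, with the counts beside the bars and all protein-coding genes as the dashed lines at 37.4% and 18.8%. The myogenic factors sit at the line on the left with 3 of 8 and past it on the right with 5 of 8.

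The other genes of the myogenic programme were set beside the 8 factors. Of 16 upstream regulators, 8 had a summit within 5000 bp of the start, among them Six5 (463) and the T-box gene Tbx1 (139), and none at Pax3, which acts in muscle progenitors. Of 13 partners, 5 did, led by Srf, the serum response factor (363), the arginine methyltransferase gene Carm1 (330.1) and the TEAD factor gene Tead4 (222), with none at Tcf3, whose product dimerizes with MyoD. No summit in the 100 kb before the start was seen for 3 of the 16 and 1 of the 13.

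Of 15 inhibitors of the programme, 10 had a summit within 5000 bp, with the strongest at Hey1 (629), a Notch target, and at Snai2 (602) and Snai1 (580.3), and none at Id1. Of 14 target genes, 9 did, led by the muscle creatine kinase gene Ckm (619), the fusion gene Mymx (452) and the fast troponin I gene Tnni2 (443), with none at the desmin gene Des. Among 20 factors of other lineages, 8 did, led by Neurog2 (606), Cebpa (535) and Sox9 (495), with none at Neurod1. The 100 kb before the start was without a summit for 1 of 15 inhibitors, 0 of 14 targets and 1 of 20 factors of other lineages.

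The median interval of the myogenic factors was 197.8 kb beside 124.6 kb for partners, 116.4 kb for factors of other lineages, 94.2 kb for upstream regulators, 72.7 kb for inhibitors and 31.7 kb for targets. These intervals include the gene body, and Myf5 and Myf6 count the same one. Without the body the medians were 133.8 kb for the myogenic factors, 71.3 kb for factors of other lineages, 68.8 kb for inhibitors, 51.8 kb for upstream regulators, 47.6 kb for partners, 21.1 kb for targets and 54.8 kb for all genes. With the shared interval counted once, the 7 intervals of the myogenic factors had a median of 164.8 kb with the body. Of the genes with a motif at both flanks, 9 of 14 factors of other lineages were convergent, beside 29.0% of all such protein-coding genes. In the other lists, 3 of 7 upstream regulators, 3 of 9 partners, 3 of 7 inhibitors and 0 of 7 targets were convergent. The members' 0 of 2 rests on the flanks that Myf5 and Myf6 share. These differences were not tested, and the lists were put together by hand.

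The 58 summits were compared with all 42163 by strength, motif and pool. Their median strength was 323 (lowest 50.05, highest 603.4) beside 246, at a median percentile of 60.2. Above the 90th percentile were 10 of 58 (17.2%, interval 9.64% to 28.9%). A motif was present at 67.2% (54.4% to 77.9%) beside 77.6%, and the weight matrix matched 82.8% beside 87.0%.

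The 201 bp around the 58 summits had a median of 54.5% G and C beside 48.8%, and 5 (8.62%, interval 3.74% to 18.6%) fell in a masked repeat beside 19.7%. In windows displaced by 2000 bp from all summits of the conservative list, not only the 58, the consensus was found at 3.17%. The shares of the 58 are descriptions of summits that share windows.

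At a reciprocal overlap of 50%, 36 of the 58 were in both pool lists (62.1%, 49.2% to 73.4%) beside 59.7% of all. An overlap of 1 bp gave 43 (74.1%) beside 75.9%. All 58 summits matched a ranked peak of each pool, so the shares at 1 bp show mainly which peaks also passed each pool list's threshold. Passing went with strength: at 1 bp, 3 of 16 member summits below the 25th percentile were in both lists, and above it 40 of 42 were. Over all peaks the shares were 24.6% and 93.0%.

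The exceptions above the 25th percentile were the strong summits 16841 bp past the Myod1 start and 211139 bp past the Mef2c start. Their strengths in the ranked pool E list were 342 and 357, and their IDR there was 0.60 for each, so that they were missing from the thresholded pool E list despite their rank. Over all peaks, 1145 of the 4217 strongest 10% of the conservative list (27.2%) had no peak in the thresholded pool E list. Each of the 1145 had an IDR above the threshold in pool E. An absence from the pool E list is therefore not an absence of signal at these sites.

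**Figure D4:**
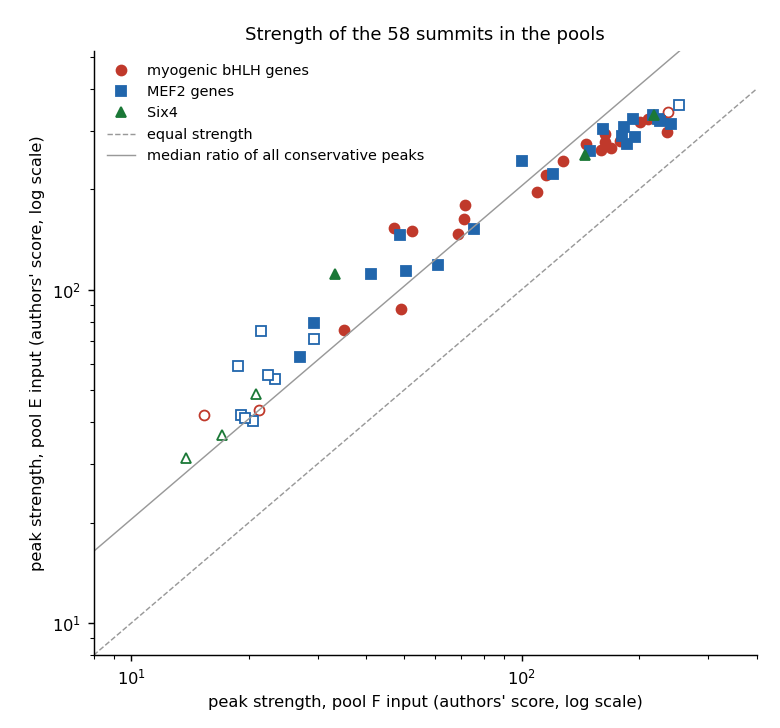
Peak strength of the 58 summits in pool E (y axis) and pool F (x axis), the authors' score on log scales, by gene family; open symbols did not overlap both pool lists by 1 bp, the dashed line marks equal strength and the solid line the median ratio of all 42163 peaks. All 58 lie above equality, and the open symbols sit at the weak end except for 2 at the strong end, past Myod1 and Mef2c.

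Strength was higher in pool E than in pool F at each of the 58 summits. The log2 ratio of pool E to pool F ran from 0.34 to 1.81 with a median of 0.94, beside a median of 1.03 over all peaks. Scale and depth of the scores were not given, so the ratio does not compare occupancy between the pools.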

How the data were processed

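CTCF ChIP-seq of gastrocnemius was analysed from 4 thresholded and 4 ranked peak lists, as deposited, on mm10. Which aligner and peak caller were used is not given in the sources used here. The peak strength is a score the authors deposited with each peak, on a scale that was not stated. Each ranked list carries the authors' −log10 IDR per peak, and the conservative list keeps peaks at 0.05 or less. First-input strengths of the conservative list matched the ranked pool E list at 58 of 58 summits, and second-input strengths matched pool F at 58 of 58.

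Gene positions came from GENCODE M21, motifs and sequences from GRCm38.p6. The motif was the 14-base CTCF consensus on both strands with at most 2 mismatches, its centre within 50 bp of the summit; the weight matrix of 20 columns had its threshold set so that 5% of windows displaced by 2000 bp matched. Exons and introns were numbered on the transcript with the longest coding sequence. Python 3.11.15 with numpy 2.4.6, pandas 2.3.3, scipy 1.17.1 and matplotlib 3.10.9 was used, and the motif and flank code was tested on simulated data.

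The genes and lists were chosen with earlier results of these data known. The text names the 8 genes, their flanking summits, each summit in windows of up to 12 (the 5 strongest at Mef2d, with body summits and the candidate at 54522 bp added after its value was seen), the nearest genes, and in each other list the 3 genes with the strongest summit and the first without one. A gene and a site that this rule takes are not reported here. All values are descriptions. The 2 pools are the only biological replicates, both of the same condition, and no list separates their technical replicates, so no test between samples was made. Alternatives changed the list, window, start, motif rule and overlap.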

Additional observations from a re-analysis of the deposited data

How the results depend on the processing

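Under the alternatives, 39 recomputed main values stayed within 1.5 times the count or inside the interval and 12 did not. Within 20000 bp of the start the count of members rose to 5. The strongest 50% of the list held 30 of the summits, 200 kb windows held 99. Members with convergent flanks numbered 0 in the conservative list, 1 in pool F, 3 in the strongest 50% and 2 with motif-bearing flanks. In the same order, 6, 3, 2 and 0 members could not be read for lack of a motif. Of all genes with both motifs, 29.0%, 29.0%, 27.5% and 28.9% were convergent. Of the 3 members, Myf5 and Myf6 share their flanks. Among summits in both pool lists at 1 bp, an alternative chosen after seeing the data, 1 member (Mef2a) was convergent. The share with a motif was 83.3% in the strongest 50%, 39.7% at no more than 1 mismatch and 82.8% by weight matrix. The weight matrix matched 87.0% of all summits. A best match with 0 mismatches was found at 13.8% of the 58 beside 12.2% of all summits. For 1 mismatch the shares were 25.9% and 32.9%. The share in both pool lists was 74.1% at an overlap of 1 bp and 1.72% at a reciprocal overlap of 80%. Of the counts per gene, 16 moved by over 1.5 times and 32 did not, among them Myog (13 in the combined list), Mef2a (5 in pool F) and Six4 (3 in pool F).

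No paired analysis was possible because each list merges the technical replicates of its pools, and leaving out a replicate was not possible for the same reason. Depth was unknown, so absence from a list means only that no peak passed its threshold.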
